A study of Homo sapiens with 9 samples.

Results

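The genes described here are the amino acid transporters of the solute carrier families SLC1, SLC3, SLC7, SLC36, SLC38 and SLC43. They were taken by symbol from the deposited gene table, which gave 40 genes of 27730 symbols. The rule used symbols and no measured value, but it was set with earlier results of these data known. RNA was sequenced from HUES9, an established human embryonic stem cell line kept on mitomycin-treated mouse fibroblast feeders, in 3 groups of 3 libraries. The first group was untreated cells at day 1. The other two groups were collected at day 13 of differentiation, 1 with 10 µM AA147 and 1 with 10 µM RP22. The labels describe AA147 as a small molecule that switches on ATF6, which carries misfolding signals from the endoplasmic reticulum to the nucleus, and RP22 as an inactive analog of it. Both compounds were dissolved in DMSO, and medium with the compound was renewed daily. Differentiation went through embryoid bodies spun together without FGF2 and later plated on Matrigel. The medium of all groups held non-essential amino acids and a stable glutamine source, so the supply of several substrates of these carriers was supplemented throughout. All 9 libraries came from 1 line, solvent-only cells were not analysed here, and reads of mouse feeder cells cannot be separated in the deposited values. The labels call the replicates independent experiments.

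Solute carriers set which amino acids enter and leave a cell. The SLC7 light subunits reach the plasma membrane only as a disulfide-linked pair with a heavy subunit of the SLC3 family, and most of them exchange 1 amino acid for another. The cationic members of SLC7 act alone and bring in arginine, lysine and ornithine. SLC1 carriers use the sodium gradient to take up glutamate and aspartate or to exchange small neutral amino acids. SLC38 carriers take up glutamine and other neutral amino acids with sodium, SLC36 carriers move small amino acids with protons, and SLC43 carriers pass large neutral amino acids down their gradient. Several of these genes are known to be transcribed more when amino acids are short or when proteins misfold in the endoplasmic reticulum, through ATF4 bound with a C/EBP partner, whereas ATF6 is a separate arm of the unfolded protein response.

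Library totals ranged from 9223027 to 10118258 reads. RP22 replicate 1 stood apart from its group: a chi-square per degree of freedom over gene counts was 29.6 and 28.5 against replicates 2 and 3, which differed from each other by 2.46. The same measure ran from 3.8 to 14.6 among the day 1 libraries and from 5.3 to 11 among the AA147 libraries. The labelled stem cell state was seen at day 1, where 8 pluripotency markers summed to 6299.9 to 7126 CPM (reads scaled to library size, here after the trimmed-mean correction TMM). These markers summed to 397 to 683 CPM with RP22 and to 126 to 159 CPM with AA147, where NANOG had no read. With AA147 most of that sum was ZFP42, which was higher there (72.6 to 91.3 CPM) than with RP22 (52.9 to 54.9 CPM). These are bulk samples, so fewer cells of a type and less RNA per cell cannot be told apart in any value below.

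Of the 40 transporters, 2 (SLC7A13 and SLC36A3) had no read in any library, and 7, those 2 included, had fewer than 30 reads over all 9 libraries. A filter on low counts left 32 transporters for AA147 against RP22, 32 for RP22 against day 1 and 30 for AA147 against day 1. AA147 and RP22 were compared at the same dose and day. There 13 transporters were higher with AA147 and 11 lower at an adjusted p under 0.05 (edgeR quasi-likelihood test, Benjamini-Hochberg over all genes tested), and 8 did not pass. Over all 14293 genes tested in that comparison, 29.8% were higher, 32.2% lower and 62% changed either way, against 75% of the transporters tested. Changes of at least 2-fold that passed were seen in 19 of the 32 transporters (59.4%), beside 26.5% of all genes. The 3 libraries of 1 group lay wholly above or below the other's for 26 transporters (81.2%), beside 69.9% of all genes. The median absolute log2 fold change was 1.44 over the transporters and 0.495 over all genes. The signed medians were 0.09 and -0.03, so rises and falls were of like number. The counts, shares and absolute median above include falls in transporters with 4 (SLC7A14) to 19 (SLC38A3) reads over the AA147 group. These passed the filter through their RP22 libraries, so a call in them could only be a fall. The share of such genes among all genes was not counted.

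From day 1 to day 13 with RP22, 14 transporters were higher and 9 lower of 32 tested. All genes were higher in 36.6% and lower in 35.2% of cases, 71.9% in all, which is also the share of the transporters that changed. From day 1 to day 13 with AA147, 17 were higher and 10 lower of 30 tested, or 90%, beside 38.7% higher, 40.4% lower and 79.1% in all over all genes. Without overlap between the groups were 23 transporters (71.9%, beside 76.9% of all genes) with RP22 and 27 (90%, beside 82.4%) with AA147. At least 2-fold changes that passed made up 50% of the transporters against 35.5% of all genes with RP22, and 73.3% against 45.4% with AA147. Both of these comparisons use the same day 1 libraries, so their values are given side by side and not as support for each other. Some calls had a direction fixed by the filter. For AA147 against day 1, SLC1A2, SLC1A6, SLC38A4, SLC38A5, SLC43A1 and SLC7A3 had 5 (SLC38A4) to 17 (SLC43A1) AA147 reads. They passed the filter through day 1, so a call could only be a fall. SLC7A4 and SLC7A14 had 15 and 8 reads at day 1, and SLC38A11 had none. Where tested, they passed it through day 13 libraries, so a call could only be a rise.

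The counts of AA147 against RP22 depend on the scaling. With library totals alone in place of TMM, the median gene went from a log2 fold change of -0.03 to one of -0.49, and 9 transporters were higher and 17 lower. The 6 calls gained there were SLC36A4, SLC38A2, SLC38A6, SLC38A9, SLC7A2 and SLC7A6, all lower with AA147, at -0.24 to -0.71. The same replacement moved the median of all genes to -0.48 for AA147 against day 1, with 14 higher and 12 lower, and to 0.12 for RP22 against day 1, with 16 higher and 7 lower. The fold changes below are those under TMM, where the median gene lies near 0. Of the calls in AA147 against RP22, 9 of the 13 rises and 10 of the 11 falls held under every alternative that tested them. The 9 rises were SLC1A1, SLC1A3, SLC1A4, SLC1A5, SLC38A10, SLC3A2, SLC7A1, SLC7A5 and SLC7A7, and the call among the falls that was lost was that of SLC38A5. Apart from SLC7A8 and SLC43A3, the transporters called lower had 4 (SLC7A14) to 19 (SLC38A3) reads over the AA147 group. They passed the filter on low counts through their RP22 libraries. A call in them could only be a fall, so these falls are no separate support.

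**Figure D1:**
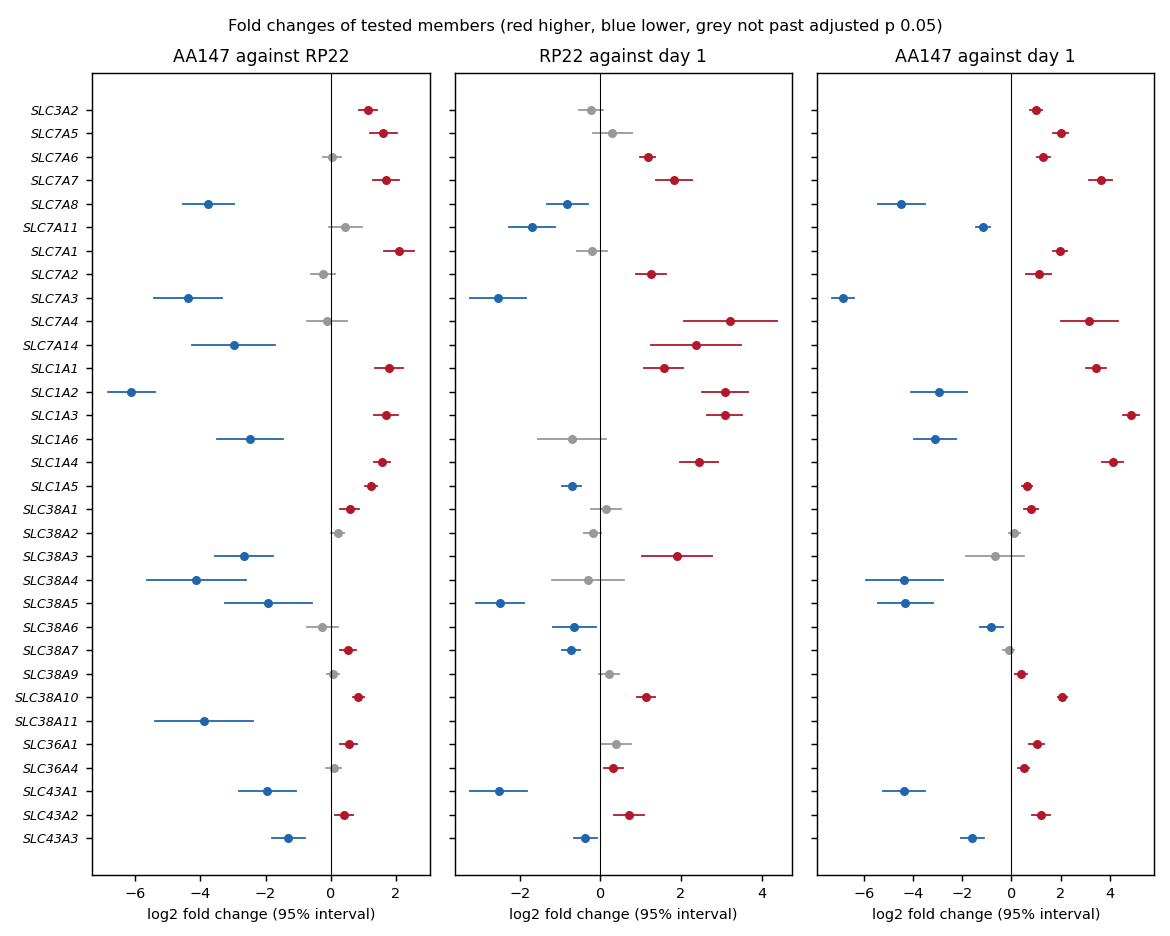
Log2 fold changes (horizontal axes) of the transporters tested in each comparison, with 95% intervals, in red where higher, blue where lower and grey where the adjusted p was 0.05 or more. SLC38A11 is left out of RP22 against day 1, where day 1 had no read; the panel of AA147 against RP22 runs from SLC1A2 at -6.12 to SLC7A1 at 2.11, and with library totals alone the sign turns for SLC36A4, SLC38A2, SLC38A9, SLC43A2, SLC7A11 and SLC7A6 there and for SLC38A2 and SLC38A9 in AA147 against day 1.

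**Figure D2:**
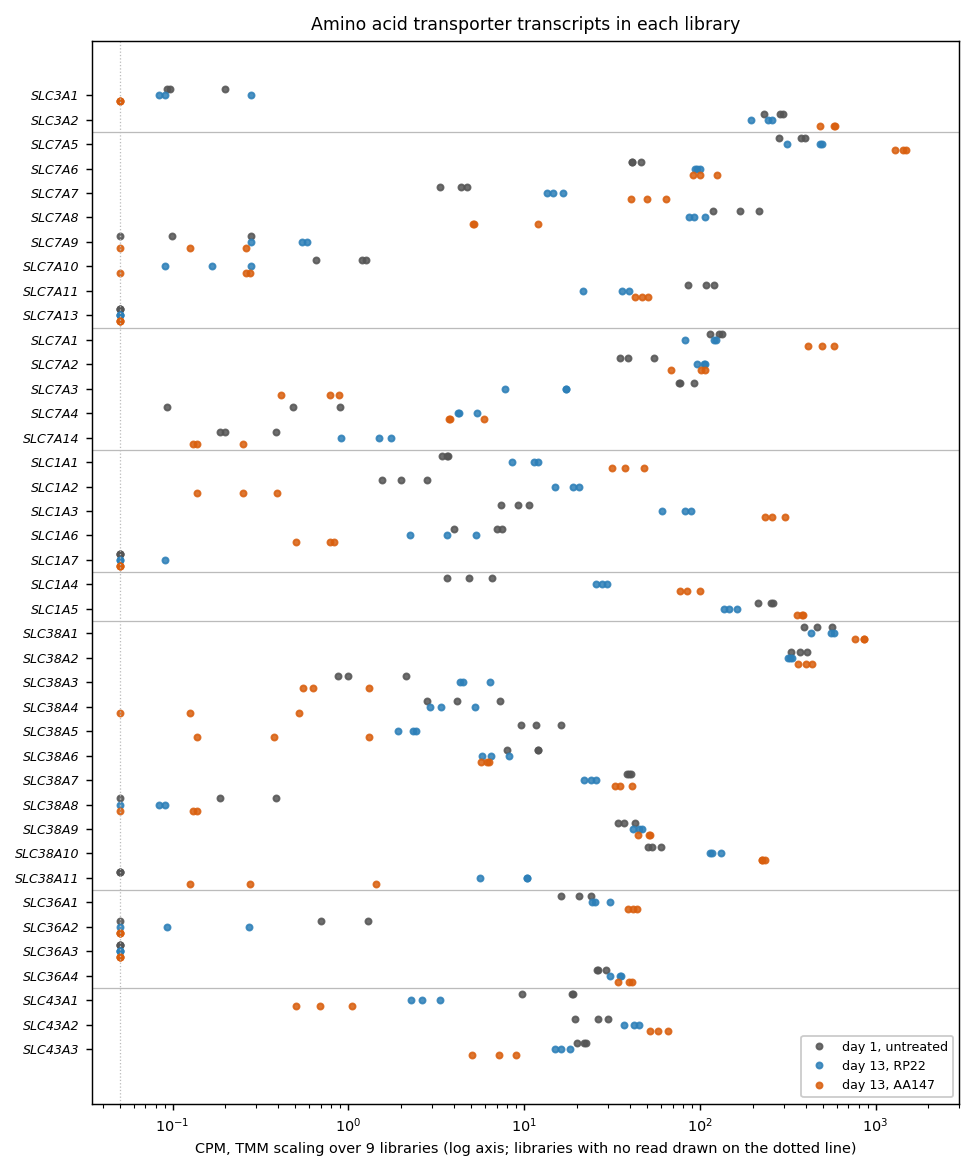
CPM of all 40 transporters in each of the 9 libraries on a log axis, day 1 in grey, RP22 in blue and AA147 in orange, with libraries without a read on the dotted line. The AA147 points of SLC7A5 lie between 1283 and 1489.8 CPM, to the right of every other library, and those of SLC1A2 lie at or below 0.393 CPM, to the left.

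Promoter windows were read for the members because several are known targets of stress factors, and the letters of known response elements were searched in both strands. The RefSeq table (GRCh38.p14) held 53 windows of 300 bases, from 250 bases before to 50 bases after a start site, for 31 of the 40 genes. It had no entry for SLC1A2, SLC3A1, SLC38A3, SLC43A3, SLC7A2, SLC7A3, SLC7A4, SLC7A11 and SLC7A13. The core of the C/EBP-ATF element that ATF4 binds, TGATGNAA, was found in 6 of the 53 windows (11.3%) and in 3.62% of all 35116 windows of the table. By gene, 6 of 31 members (19.4%) and 4.46% of all 27305 genes had it. The 6 genes were SLC1A3, SLC1A4, SLC1A5, SLC3A2, SLC38A1 and SLC7A1. Each of the 6 was higher with AA147 than with RP22, although the call of SLC38A1 was lost with library totals alone. All 13 transporters that were higher with AA147 had a window, and the other 7 had no match in theirs. This is a description of letters, and no test was made of it.

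The stretches below are shown because they hold these 6 matches, along with SLC7A5, the partner of SLC3A2, whose window has no such match. Each is written 5′ to 3′ on the strand of its gene in lower case, and capitals mark a match to TGATGNAA or to TGACNNNGC (a core of the antioxidant response element that NFE2L2 binds), on either strand. The stretch of SLC1A4 is chr2:64989269-64989428 (plus strand), of SLC1A3 chr5:36596338-36596497 (plus), of SLC3A2 chr11:62881569-62881698 with a shorter piece at chr11:62881724-62881748 (plus), of SLC38A1 chr12:46266487-46266646 (minus), of SLC7A1 chr13:29595659-29595818 (minus), of SLC1A5 chr19:46784785-46784944 (minus) and of SLC7A5 chr16:87869478-87869637 (minus). In the longer stretch of SLC3A2, in that of SLC7A5 and in the upstream capitals of SLC7A1, the match is to TGACNNNGC.
SLC1A4: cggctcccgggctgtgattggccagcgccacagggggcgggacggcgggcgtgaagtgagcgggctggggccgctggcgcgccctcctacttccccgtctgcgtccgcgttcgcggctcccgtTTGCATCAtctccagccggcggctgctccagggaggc
SLC1A3: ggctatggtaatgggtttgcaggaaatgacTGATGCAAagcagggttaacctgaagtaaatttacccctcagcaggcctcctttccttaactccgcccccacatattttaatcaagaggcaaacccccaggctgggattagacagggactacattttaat
SLC3A2: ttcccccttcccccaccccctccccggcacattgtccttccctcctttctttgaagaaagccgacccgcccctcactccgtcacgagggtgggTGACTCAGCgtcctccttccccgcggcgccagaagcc
SLC3A2: gtgcaggactccTTACATCAgctcc
SLC38A1: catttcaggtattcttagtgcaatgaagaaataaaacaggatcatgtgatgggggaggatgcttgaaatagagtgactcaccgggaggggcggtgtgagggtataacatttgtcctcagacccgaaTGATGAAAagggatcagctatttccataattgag
SLC7A1: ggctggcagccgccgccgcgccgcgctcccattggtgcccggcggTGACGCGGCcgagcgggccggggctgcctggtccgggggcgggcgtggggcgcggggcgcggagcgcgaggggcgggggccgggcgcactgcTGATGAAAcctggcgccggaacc
SLC1A5: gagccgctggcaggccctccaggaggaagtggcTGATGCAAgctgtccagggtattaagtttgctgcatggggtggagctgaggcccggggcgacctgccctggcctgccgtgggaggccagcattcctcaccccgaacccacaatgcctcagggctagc
SLC7A5: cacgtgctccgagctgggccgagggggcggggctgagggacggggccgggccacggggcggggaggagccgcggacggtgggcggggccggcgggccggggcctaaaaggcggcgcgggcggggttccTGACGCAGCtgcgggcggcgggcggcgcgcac

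Counted from the first transcribed base as 0, the C/EBP-ATF core lay at -7 to 0 in SLC1A4, -4 to 3 in SLC38A1, 7 to 14 in SLC7A1 and 37 to 44 in SLC3A2. It lay farther upstream in SLC1A3, from -220, and in SLC1A5, from -97. The matches of SLC1A3 and SLC1A5 fall in 1 of 3 windows each, SLC3A2 also has 3 windows, and SLC38A1 and SLC1A4 have 2, so a match need not belong to the start site in use. The antioxidant core was in 7 of 53 windows of the members (13.2%) beside 13.3% of all windows. By gene, 22.6% of members and 16.1% of all genes had it. CCACG, the end of the ER stress element that ATF6 binds, was in 45.3% of the members' windows and 38.1% of all windows. By gene, it was in 61.3% of members and 42.1% of all genes. Members had more windows per gene (53 for 31 genes) than the table (35116 for 27305), which raises their shares by gene for each motif. The whole element, CCAAT and CCACG with 9 bases between, a search chosen after seeing the data, was in none of the 53 windows and in 0.0769% of all. These letters overlap in places: in SLC7A6 a CCACG match on the minus strand lies inside an antioxidant core match.

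**Figure D3:**
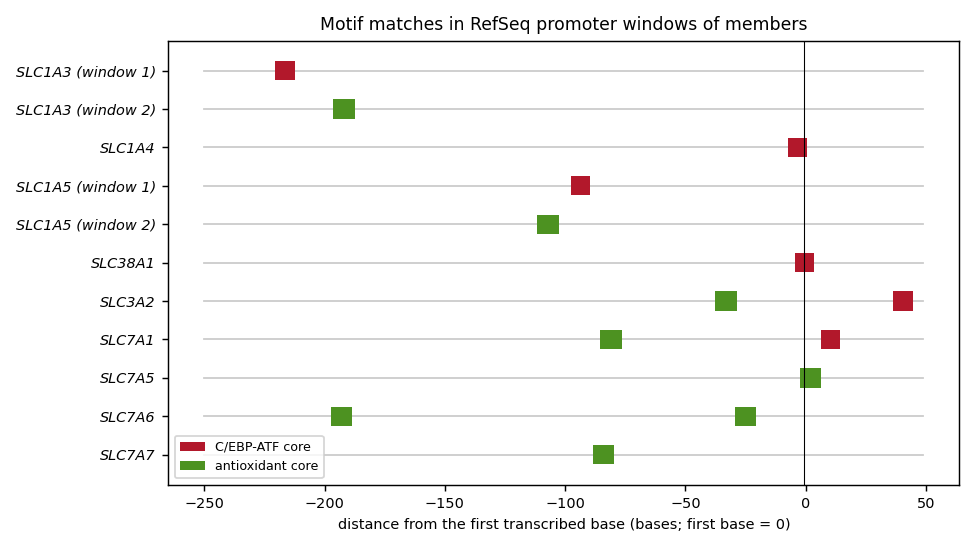
Positions of the C/EBP-ATF core (red) and the antioxidant core (green) in the promoter windows of members with a match, in bases from the first transcribed base. Red boxes overlap the start in SLC1A4 and SLC38A1, just after it in SLC7A1 and SLC3A2, and at -220 and -97 in SLC1A3 and SLC1A5.

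SLC3A2 and SLC7A5 form the CD98 heterodimer, the exchanger that brings leucine and other large neutral amino acids into growing cells, and both transcripts were higher with AA147 than in either other group. Of the 5 light subunits tested, 2 were higher with AA147 than with RP22 and 1 lower, beside 29.8% and 32.2% of all genes. The other 2 did not pass. SLC3A2, the heavy subunit, had 233, 299 and 285 CPM at day 1, 196, 244 and 258 CPM with RP22 and 483, 584 and 576 CPM with AA147. SLC7A5, the light subunit LAT1, had 283, 394 and 376 CPM at day 1, 314, 497 and 485 CPM with RP22 and 1283, 1439.6 and 1489.8 CPM with AA147. For both genes every AA147 library lay above all 6 others, while the day 1 and RP22 libraries overlapped. The log2 fold change of AA147 over RP22 was 1.15 ± 0.12 (SE; adjusted p = 0.00013) for SLC3A2 and 1.62 ± 0.18 (SE; adjusted p = 0.00024) for SLC7A5. Over day 1 it was 1.01 ± 0.11 (SE; adjusted p = 1.9e-05) and 2.00 ± 0.13 (SE; adjusted p = 6.6e-07). RP22 did not differ from day 1 past the test, at -0.23 ± 0.13 (SE; adjusted p = 0.14) for SLC3A2 and 0.30 ± 0.21 (SE; adjusted p = 0.23) for SLC7A5. Both of these could pass with 1 library left out: without RP22 replicate 1, SLC7A5 was higher with RP22 (log2 0.48, adjusted p = 0.013), and without day 1 replicate 1, SLC3A2 was lower (log2 -0.34, adjusted p = 0.037). SLC3A1, the heavy subunit of kidney and gut, had 4 reads at day 1, 5 with RP22 and none with AA147, too few for a fold.

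SLC7A8, the light subunit LAT2 that carries the same large neutral amino acids as SLC7A5 and smaller ones too, moved the other way. Its levels were 217, 118 and 169.8 CPM at day 1, 87.3, 107 and 92.6 CPM with RP22 and 12.1, 5.103 and 5.17 CPM with AA147. The 3 groups did not overlap, and the AA147 libraries held the lowest values. AA147 over RP22 gave a log2 fold change of -3.75 ± 0.33 (SE; adjusted p = 0.00019), AA147 over day 1 -4.49 ± 0.39 (SE; adjusted p = 5.9e-05) and RP22 over day 1 -0.82 ± 0.21 (SE; adjusted p = 0.012). The fall with RP22 missed the threshold without RP22 replicate 1 (log2 -0.76, adjusted p = 0.051) and without replicate 1 of both groups (log2 -0.54, adjusted p = 0.17), and without replicate 1 of both groups the fall of AA147 from RP22 was -4.35. Per unit of length (RPKM, which divides reads by gene length and by library depth), SLC7A5 stood 2.13 ± 0.95 (SD, n = 3) times as high as SLC7A8 at day 1, 4.2 ± 0.78 times with RP22 and 210.4 ± 96.3 times with AA147.

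The light subunits of the y+L system, which exchange cationic for neutral amino acids, were both higher at day 13 than at day 1. SLC7A7 had 3.35, 4.77 and 4.38 CPM at day 1, 13.5, 16.6 and 14.6 CPM with RP22 and 40.5, 64.4 and 50.1 CPM with AA147. The groups stood in that order without overlap. Its log2 fold change was 1.83 ± 0.19 (SE; adjusted p = 6.6e-05) with RP22 over day 1, 3.63 ± 0.21 (SE; adjusted p = 2.8e-07) with AA147 over day 1 and 1.71 ± 0.17 (SE; adjusted p = 0.00012) with AA147 over RP22. SLC7A6 lay at 41.1 to 46.3 CPM at day 1, 93.7 to 100.1 with RP22 and 91.7 to 125 with AA147. It rose by 1.17 ± 0.08 (SE; adjusted p = 8.8e-06) with RP22 and 1.30 ± 0.13 (SE; adjusted p = 7.8e-06) with AA147 over day 1 on the log2 scale. The difference between the compounds was 0.05 with a 95% interval of -0.23 to 0.32, and its sign turned with library totals alone (-0.41).

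SLC7A11, the xCT subunit that takes up cystine for glutathione in exchange for glutamate, fell over 13 days in both groups. It had 85.98, 120.3 and 109 CPM at day 1, 21.8, 36.1 and 39.6 CPM with RP22 and 43.01, 50.5 and 47.1 CPM with AA147. Every day 13 library lay below every day 1 library, and the AA147 libraries lay above the RP22 libraries. The log2 fold change from day 1 was -1.69 ± 0.24 (SE; adjusted p = 0.0006) with RP22 and -1.16 ± 0.13 (SE; adjusted p = 2.1e-05) with AA147. Between the compounds it was 0.44 ± 0.21 (SE; adjusted p = 0.11), with a 95% interval of -0.07 to 0.95, which does not show that they act alike on this gene. That call was gained without RP22 replicate 3 (log2 0.63, adjusted p = 0.049) and without replicate 1 of both groups (log2 0.28, adjusted p = 0.015), and the value was near 0 with library totals alone (log2 -0.02). Of the other light subunits, SLC7A10, a carrier of small neutral amino acids including D-serine, had 32 reads at day 1, 6 with RP22 and 4 with AA147. SLC7A9, the cystine and cationic amino acid carrier of the kidney, had 4, 16 and 3 reads, a ratio of 3.82 of RP22 to AA147 with a 95% counting interval of 1.09 to 20.5.

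Among the cationic carriers, per unit of length, SLC7A3 was the leading transcript at day 1 and SLC7A1 with AA147. Of the 5 tested between the compounds, 1 was higher with AA147 and 2 lower, beside 29.8% and 32.2% of all genes. The other 2 did not pass. SLC7A1 (CAT1, the widespread arginine and lysine carrier) had 115, 128 and 133 CPM at day 1, 81.9, 121 and 123 CPM with RP22 and 413, 497 and 581 CPM with AA147. SLC7A3 (CAT3, a relative with the same substrates) had 76.97, 76.2 and 92.7 CPM at day 1, 7.75, 17.4 and 17.2 CPM with RP22 and 0.787, 0.414 and 0.882 CPM with AA147. Every AA147 library lay above all others for SLC7A1 and below all others for SLC7A3. AA147 over RP22 gave a log2 fold change of 2.11 ± 0.19 (SE; adjusted p = 0.00014) for SLC7A1 and -4.39 ± 0.45 (SE; adjusted p = 0.00013) for SLC7A3. AA147 over day 1 gave 1.99 ± 0.12 (SE; adjusted p = 5.9e-07) and -6.84 ± 0.20 (SE; adjusted p = 3.5e-09). With RP22 over day 1, SLC7A3 fell by 2.53 ± 0.29 on the log2 scale (SE; adjusted p = 0.00027), while SLC7A1 gave -0.21 ± 0.16 (SE; adjusted p = 0.26). Per unit of length, SLC7A1 stood at 0.474 ± 0.039 (SD, n = 3) times SLC7A3 at day 1, 2.54 ± 0.63 times with RP22 and 245 ± 109.9 times with AA147. The AA147 libraries gave 162.1, 369.5 and 202.3 times, on 6, 3 and 7 reads of SLC7A3. Both falls of SLC7A3 with AA147 rest on the same reads.

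SLC7A2 (CAT2, the carrier that supplies arginine to nitric oxide synthesis in several cell types) was at 35.02 to 55.2 CPM at day 1, 96.6 to 107 with RP22 and 68.8 to 107 with AA147. It was higher at day 13 with RP22 (1.26 ± 0.16 (SE; adjusted p = 0.00027)) and with AA147 (1.10 ± 0.22 (SE; adjusted p = 0.002)) on the log2 scale, and the difference between the compounds was -0.24 with an interval of -0.60 to 0.12, or -0.70 (adjusted p = 0.0049) with library totals alone. SLC7A4, a relative of the cationic carriers whose own transport is unsettled, had 0.09300, 0.486 and 0.895 CPM at day 1, 5.42, 4.19 and 4.26 CPM with RP22 and 3.802, 3.72 and 5.92 CPM with AA147. It rose from a low level over 13 days, by 3.22 ± 0.50 (SE; adjusted p = 0.00055) with RP22 and 3.18 ± 0.51 (SE; adjusted p = 0.00029) with AA147 on the log2 scale. These values rest on 15 reads at day 1, and without day 1 replicate 3 they were 3.95 and 3.91. Between the compounds SLC7A4 gave -0.12 with an interval of -0.73 to 0.49. SLC7A14, a lysosomal member known from retina and brain, had 8, 47 and 4 reads at day 1, with RP22 and with AA147, a log2 fold change of 2.38 ± 0.48 (SE; adjusted p = 0.0024) for RP22 over day 1 and -2.97 ± 0.55 (SE; adjusted p = 0.0021) for AA147 over RP22. The latter rests on those 4 reads, and SLC7A14 passed the filter on low counts through its RP22 libraries.

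Of the 4 glutamate carriers tested between the compounds, 2 were higher and 2 lower with AA147, beside 29.8% and 32.2% of all genes. SLC1A3 (EAAT1 or GLAST, the glutamate carrier of astroglia that many other cells also make) had 10.7, 7.39 and 9.25 CPM at day 1, 61.01, 82.03 and 89.1 CPM with RP22 and 236, 304 and 259 CPM with AA147. SLC1A1 (EAAT3, a carrier of glutamate and cysteine in neurons and epithelia) had 3.62, 3.404 and 3.68 CPM at day 1, 8.502, 12.02 and 11.4 CPM with RP22 and 31.7, 37.7 and 48.1 CPM with AA147. Both rose in the order day 1, RP22 and AA147 with no overlap between groups. SLC1A3 changed by 3.08 ± 0.19 (SE; adjusted p = 5.9e-06) with RP22 over day 1, 4.86 ± 0.15 (SE; adjusted p = 5.8e-09) with AA147 over day 1 and 1.70 ± 0.16 (SE; adjusted p = 0.00011) with AA147 over RP22 on the log2 scale. The same values for SLC1A1 were 1.57 ± 0.21 (SE; adjusted p = 0.00021), 3.45 ± 0.19 (SE; adjusted p = 1.5e-07) and 1.80 ± 0.19 (SE; adjusted p = 0.00014).

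SLC1A2 (EAAT2 or GLT-1, the main glutamate carrier of mature astrocytes) had 2.79, 1.56 and 1.99 CPM at day 1, 14.9, 20.6 and 19.1 CPM with RP22 and 0.393, 0.138 and 0.252 CPM with AA147. RP22 libraries were the highest and AA147 libraries the lowest, with no overlap. Its log2 fold change was 3.09 ± 0.25 (SE; adjusted p = 1.6e-05) for RP22 over day 1, -6.12 ± 0.31 (SE; adjusted p = 7.3e-06) for AA147 over RP22, the lowest value of any transporter in that comparison, and -2.94 ± 0.50 (SE; adjusted p = 0.00041) for AA147 over day 1. The AA147 group had 6 reads of this gene in all, so the counting error of the latter 2 values is wide. SLC1A6 (EAAT4, the carrier of Purkinje cells) had 6.97, 3.99 and 7.46 CPM at day 1, 2.24, 3.64 and 5.35 CPM with RP22 and 0.787, 0.828 and 0.504 CPM with AA147. The AA147 libraries lay below the rest, at -2.48 ± 0.44 (SE; adjusted p = 0.0018) against RP22 and -3.10 ± 0.38 (SE; adjusted p = 4.2e-05) against day 1, and the fall from day 1 to RP22 did not pass (-0.71 ± 0.37 (SE; adjusted p = 0.11)) unless RP22 replicate 3 was left out (-1.06, adjusted p = 0.044). SLC1A7, the retinal EAAT5, had 1 read in all 9 libraries. Per unit of length, SLC1A3 stood 16.1 ± 1.65 (SD, n = 3) times as high as SLC1A2 at day 1 and 14.1 ± 1.03 times with RP22. With AA147 the 3 libraries gave 1969, 7641 and 3402 times, which rest on the 6 reads of SLC1A2.

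Markers of the cell types in which glutamate carriers are best known were read beside these results. Between the compounds most of those tested went the way of SLC1A2 and not of SLC1A3 and SLC1A1. The list of 7 astroglial and radial glial markers summed to 1591 to 2041 CPM at day 1, 393 to 655 with RP22 and 269 to 349.8 with AA147. Most of that sum was GJA1, a gap junction gene of many cell types, and FABP7 and ALDH1L1 had no read with AA147. With RP22 over day 1, 4 of 5 tested were higher and 1 (GJA1) lower, beside 36.6% and 35.2% of all genes. The 4 were HOPX, S100B, AQP4 and FABP7, and the libraries of FABP7 overlapped. The list of 8 neuronal markers summed to 304 to 341 CPM at day 1, 1045 to 1279 with RP22 and 499 to 533 with AA147, with no marker at 0 in a whole group. With AA147 most of that sum was TUBB3, at 416 to 462 CPM. Of 6 neuronal markers tested with AA147 over day 1, 1 was higher (TUBB3) and 2 lower (DCX and GAP43), beside 38.7% and 40.4% of all genes. DCX, which marks young neurons, stood at 203 to 218 CPM with RP22 and at 0.378 to 1.66 CPM with AA147. Of 5 glial markers tested between the compounds, 5 were lower with AA147. Of 8 neuronal markers, 6 were lower and 1 (TUBB3) higher, beside 32.2% and 29.8% of all genes. Markers of 2 further cell types were highest with RP22. The list of 6 hepatic and yolk sac markers summed to 5.3 to 8.95 CPM at day 1, 110 to 180.04 with RP22 and 0.97 to 6.16 with AA147, where TTR had no read. The list of 6 endothelial markers summed to 39.9 to 60.1, 88.9 to 186 and 5.79 to 23.3 CPM, with PECAM1 at 0 at day 1 and with AA147. In each of these 2 lists 5 of 5 markers tested were lower with AA147 than with RP22, beside 32.2% of all genes. SLC1A2, SLC38A3, SLC38A11 and SLC7A14 were also highest with RP22. Of the markers above, TTR, APOA1, APOB, VWF, TIE1, AQP4, S100B, FABP7, ELAVL3 and ELAVL4 averaged at most 0.484 CPM with AA147. They passed the filter on low counts through their RP22 libraries, so between the compounds a call could only be a fall. HOPX, S100B and AQP4 averaged at most 0.542 CPM at day 1, so with RP22 over day 1 a call could only be a rise. The list of 6 smooth muscle markers was highest with AA147, at 117 to 147, 416 to 528 and 3288 to 3697 CPM. With AA147 most of that sum was TAGLN (2021 to 2261 CPM) and ACTA2 (732 to 849 CPM). Of the 6, 5 were higher with AA147 than with RP22, beside 29.8% of all genes. MYH11 did not pass, at a log2 fold change of 0.51 ± 0.36 (SE; adjusted p = 0.25). The 6 trophoblast markers summed to 7.46 to 8.74, 922 to 1068 and 1599 to 1755 CPM, but with AA147 that sum was mostly KRT7, a keratin of many epithelia, and 3 of the 6 (CGA, CGB5 and CYP19A1) were lower with AA147 than with RP22 while 2 (KRT7 and GATA3) were higher. The part of these cell types in the transporter values was not tested.

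Both neutral exchangers of SLC1 were higher with AA147 than with RP22, beside 29.8% of all genes. SLC1A5 (ASCT2, which exchanges glutamine for other neutral amino acids in dividing cells) had 213, 255 and 260.3 CPM at day 1, 163, 137 and 147 CPM with RP22 and 356, 381 and 388 CPM with AA147. RP22 libraries were the lowest and AA147 libraries the highest, with no overlap. It changed by -0.70 ± 0.10 (SE; adjusted p = 0.00038) with RP22 over day 1, 0.63 ± 0.09 (SE; adjusted p = 0.00012) with AA147 over day 1 and 1.25 ± 0.08 (SE; adjusted p = 1.6e-05) with AA147 over RP22 on the log2 scale. The rise from day 1 with AA147 lost its call with library totals alone (0.19, adjusted p = 0.069), and that between the compounds did not. SLC1A4 (ASCT1, an exchanger of serine, alanine and threonine) had 3.62, 6.61 and 4.88 CPM at day 1, 25.7, 29.5 and 27.6 CPM with RP22 and 77.1, 101 and 84.9 CPM with AA147. It rose in the order day 1, RP22 and AA147 without overlap, by 2.45 ± 0.21 (SE; adjusted p = 2.0e-05) with RP22 over day 1, 4.12 ± 0.19 (SE; adjusted p = 1.0e-07) with AA147 over day 1 and 1.58 ± 0.11 (SE; adjusted p = 2.0e-05) with AA147 over RP22. Per unit of length, SLC1A4 stayed far below SLC1A5, at 0.0094 ± 0.0019 (SD, n = 3) times its level at day 1, 0.0889 ± 0.0137 with RP22 and 0.108 ± 0.016 with AA147.

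Of the 10 members of SLC38 tested between the compounds, 3 were higher with AA147, 4 were lower and 3 did not pass. Of all genes, 29.8% were higher and 32.2% lower, and the SLC38 falls were all in scarce transcripts. SLC38A1 (SNAT1, a glutamine carrier) had 564, 391 and 464 CPM at day 1, 431, 578 and 559 CPM with RP22 and 761, 859.7 and 860.1 CPM with AA147. SLC38A2 (SNAT2, the carrier that cells raise when amino acids are short) had 408, 331 and 374 CPM at day 1, 337, 316 and 324 CPM with RP22 and 435, 402 and 362 CPM with AA147. The AA147 libraries lay above all others for SLC38A1. For SLC38A2 they lay above the RP22 libraries and overlapped those of day 1. SLC38A1 changed by 0.58 ± 0.12 (SE; adjusted p = 0.0038) with AA147 over RP22, 0.80 ± 0.13 (SE; adjusted p = 0.0003) over day 1 and 0.14 ± 0.16 (SE; adjusted p = 0.45) with RP22 over day 1 on the log2 scale, and with library totals alone the first of these was 0.12 (adjusted p = 0.43). SLC38A2 gave 0.22 ± 0.09 (SE; adjusted p = 0.059) with AA147 over RP22 with an interval of 0.02 to 0.42, 0.11 ± 0.10 (SE; adjusted p = 0.35) over day 1 and -0.19 ± 0.09 (SE; adjusted p = 0.084) with RP22 over day 1. Its difference between the compounds passed the test without RP22 replicate 1 (0.26, adjusted p = 0.028) and without AA147 replicate 3 (0.30, adjusted p = 0.027), with DESeq2 (0.21, adjusted p = 0.042) and in 1 fit of 9 libraries (0.30, adjusted p = 0.019). With library totals alone it passed in the other direction (-0.24, adjusted p = 0.043). Without day 1 replicate 2, SLC38A2 was lower with RP22 than at day 1 (-0.26, adjusted p = 0.028). Without replicate 1 of both groups, SLC38A1 was higher with RP22 than at day 1 (0.40, adjusted p = 6.8e-06).

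SLC38A10, a less studied member, had 60.4, 50.8 and 53.3 CPM at day 1, 132, 114 and 117 CPM with RP22 and 226, 227 and 236 CPM with AA147. It rose in that order without overlap, by 1.14 ± 0.10 (SE; adjusted p = 2.2e-05) with RP22 over day 1, 2.07 ± 0.08 (SE; adjusted p = 2.7e-08) with AA147 over day 1 and 0.84 ± 0.07 (SE; adjusted p = 5.5e-05) with AA147 over RP22 on the log2 scale. SLC38A7, a lysosomal exporter of glutamine and asparagine, had 40.3, 38.4 and 39.4 CPM at day 1, 23.9, 25.7 and 21.99 CPM with RP22 and 32.9, 41.4 and 35.03 CPM with AA147. Here the RP22 libraries were the lowest: -0.73 ± 0.10 (SE; adjusted p = 0.00022) for RP22 over day 1 and 0.53 ± 0.11 (SE; adjusted p = 0.0036) for AA147 over RP22, the latter 0.07 (adjusted p = 0.56) with library totals alone. AA147 and day 1 overlapped (-0.11 ± 0.10 (SE; adjusted p = 0.32)). SLC38A9, the lysosomal arginine sensor that acts on mTORC1, had 43.04, 34.4 and 37.1 CPM at day 1, 44.8, 41.8 and 46.7 CPM with RP22 and 44.7, 52.1 and 51.5 CPM with AA147. Its libraries overlapped between the compounds, where the difference was 0.07 with an interval of -0.13 to 0.27. It was higher with AA147 than at day 1 (0.37 ± 0.11 (SE; adjusted p = 0.01)), a sign that turned with library totals alone (-0.07), and with RP22 it gave 0.22 ± 0.11 (SE; adjusted p = 0.099), or 0.30 (adjusted p = 0.024) without day 1 replicate 1.

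SLC38A5 (SNAT5, a carrier of glutamine, serine and glycine) fell over 13 days. It had 9.57, 11.8 and 16.2 CPM at day 1, 2.34, 1.91 and 2.42 CPM with RP22 and 1.31, 0.138 and 0.378 CPM with AA147. The groups fell in that order without overlap. The log2 fold change from day 1 was -2.49 ± 0.26 (SE; adjusted p = 5.9e-05) with RP22 and -4.32 ± 0.49 (SE; adjusted p = 4.1e-05) with AA147, and between the compounds -1.91 ± 0.58 (SE; adjusted p = 0.021). That call was lost without AA147 replicate 2 (-1.45, adjusted p = 0.061), without AA147 replicate 3 (-1.64, adjusted p = 0.085) and without RP22 replicate 3 (-1.83, adjusted p = 0.061). AA147 replicate 1 held 10 of the 14 reads of its group, and without it the value was -3.10 against RP22 and -5.49 against day 1. SLC38A4 (SNAT4, a carrier prominent in liver and placenta) was at 2.82 to 7.25 CPM at day 1, 2.93 to 5.28 with RP22 and 0 to 0.524 with AA147. With 5 reads in the AA147 group it fell to -4.13 ± 0.66 (SE; adjusted p = 0.00098) against RP22 and -4.36 ± 0.70 (SE; adjusted p = 0.00033) against day 1, and without AA147 replicate 1, which held 4 of the 5 reads, to -5.69 and -5.90. RP22 over day 1 gave -0.31 ± 0.39 (SE; adjusted p = 0.5) for SLC38A4, with a change of sign without day 1 replicate 1 (0.13).

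SLC38A3 (SNAT3, which lets glutamine out of astrocytes and liver cells) and SLC38A11 (a member with little known transport) were high with RP22. SLC38A3 had 2.14, 0.875 and 0.995 CPM at day 1, 4.298, 6.37 and 4.51 CPM with RP22 and 1.31, 0.552 and 0.6300 CPM with AA147. SLC38A11 had 0, 0 and 0 CPM at day 1, 5.61, 10.4 and 10.4 CPM with RP22 and 1.44, 0.276 and 0.126 CPM with AA147. The RP22 libraries lay above all others for both. SLC38A3 changed by 1.90 ± 0.38 (SE; adjusted p = 0.0021) with RP22 over day 1 and -2.66 ± 0.38 (SE; adjusted p = 0.0006) with AA147 over RP22 on the log2 scale (2.51 for the first without replicate 1 of both groups), and AA147 overlapped day 1 (-0.68 ± 0.52 (SE; adjusted p = 0.25)). SLC38A11 had no read at day 1, so with 298 reads RP22 was at least 91.6-fold higher and with 14 reads AA147 at least 6.36-fold higher, taking 3 reads for the whole group as the floor. AA147 was lower than RP22 for SLC38A11 (-3.89 ± 0.64 (SE; adjusted p = 0.0015)), or -5.46 without AA147 replicate 1, which held 11 of the 14 reads. SLC38A6, an orphan carrier, was at 7.99 to 12.1 CPM at day 1, 5.79 to 8.20 with RP22 and 5.67 to 6.34 with AA147. It fell by 0.81 ± 0.21 on the log2 scale with AA147 (SE; adjusted p = 0.0056), and its fall with RP22 (-0.64 ± 0.23 (SE; adjusted p = 0.032)) missed the threshold without RP22 replicate 1 or 2 or day 1 replicate 2 or 3, at -0.54 to -0.61 and adjusted p from 0.061 to 0.11. Between the compounds SLC38A6 gave -0.25 with an interval of -0.73 to 0.22, or -0.71 (adjusted p = 0.018) with library totals alone. SLC38A8, a carrier of the retina, had 6 reads at day 1 and 2 in each other group.

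SLC36A1 and SLC36A4, which are found on lysosomes and act on mTORC1, were the 2 proton-coupled carriers abundant enough to test. Of these, 1 was higher with AA147 than with RP22, beside 29.8% of all genes. SLC36A1 (PAT1) had 23.9, 20.6 and 16.3 CPM at day 1, 30.7, 24.3 and 25.3 CPM with RP22 and 38.8, 43.7 and 41.8 CPM with AA147. The AA147 libraries lay above all others. It changed by 0.55 ± 0.11 (SE; adjusted p = 0.0027) with AA147 over RP22, 1.03 ± 0.14 (SE; adjusted p = 7.8e-05) over day 1 and 0.40 ± 0.16 (SE; adjusted p = 0.055) with RP22 over day 1 on the log2 scale. With library totals alone the first of these was 0.10 (adjusted p = 0.38), and without day 1 replicate 1 the last was 0.52 (adjusted p = 0.021). SLC36A4 (PAT4) was at 25.9 to 29.2 CPM at day 1, 30.9 to 35.5 with RP22 and 34.1 to 41.3 with AA147. It rose by 0.49 ± 0.11 (SE; adjusted p = 0.0018) with AA147 over day 1, a call lost with library totals alone (0.06, adjusted p = 0.63), and gave 0.32 ± 0.10 (SE; adjusted p = 0.022) with RP22 over day 1, a call lost without RP22 replicate 3 (0.28, adjusted p = 0.08), day 1 replicate 1 (0.29, adjusted p = 0.053) or day 1 replicate 3 (0.27, adjusted p = 0.087). Between the compounds the difference was 0.10 with an interval of -0.14 to 0.33, and -0.36 with library totals alone. SLC36A2 (PAT2, a carrier of proline, glycine and alanine) had 21 reads at day 1, 4 with RP22 and none with AA147. Pooled over the group, day 1 was at least 5.14-fold higher than AA147, a bound that covers counting error only. The day 1 libraries had 14, 0 and 7 reads, so day 1 replicate 2 did not differ from the AA147 libraries.

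The SLC43 facilitators fell with AA147 in 2 of 3 cases. Of all genes, 32.2% were lower with AA147 than with RP22 and 40.4% lower than at day 1. SLC43A1 (LAT3, a facilitator of leucine and other large neutral amino acids) had 9.76, 18.97 and 18.7 CPM at day 1, 2.62, 2.28 and 3.35 CPM with RP22 and 1.05, 0.6900 and 0.504 CPM with AA147. SLC43A3, a relative known for moving purine bases rather than amino acids, had 21.8, 22.6 and 19.9 CPM at day 1, 15.04, 18.3 and 16.3 CPM with RP22 and 9.05, 7.17 and 5.04 CPM with AA147. Both fell in the order day 1, RP22 and AA147 without overlap. SLC43A1 changed by -2.52 ± 0.31 (SE; adjusted p = 0.00014) with RP22 over day 1, -4.38 ± 0.38 (SE; adjusted p = 4.4e-06) with AA147 over day 1 and -1.94 ± 0.37 (SE; adjusted p = 0.0026) with AA147 over RP22 on the log2 scale. SLC43A3 changed by -1.30 ± 0.22 (SE; adjusted p = 0.0014) with AA147 over RP22 and -1.60 ± 0.20 (SE; adjusted p = 5.9e-05) over day 1. Its fall with RP22 (-0.38 ± 0.12 (SE; adjusted p = 0.023)) lost the call without RP22 replicate 1 (-0.32, adjusted p = 0.052), RP22 replicate 3 (-0.36, adjusted p = 0.072) or day 1 replicate 2 (-0.33, adjusted p = 0.078). SLC43A2 (LAT4, a facilitator known from kidney and gut epithelia) went the other way, from 19.4 to 29.96 CPM at day 1 to 36.8 to 44.99 with RP22 and 51.9 to 65.9 with AA147. It rose by 0.71 ± 0.16 (SE; adjusted p = 0.0044) with RP22 and 1.21 ± 0.16 (SE; adjusted p = 9.9e-05) with AA147 over day 1. Its rise with AA147 over RP22 (0.42 ± 0.12 (SE; adjusted p = 0.015)) lost the call without AA147 replicate 3 (0.34, adjusted p = 0.053) and was -0.04 with library totals alone.

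Levels of different genes can be set side by side only per unit of length, so the deposited RPKM were used to describe the makeup of each role. RPKM were scaled by the authors to library size and not by TMM. All 40 transporters together summed to 763 ± 25.2 RPKM (SD, n = 3) at day 1, 775 ± 94.2 with RP22 and 1086 ± 49.8 with AA147. The AA147 libraries (1029 to 1121) lay above all others, and the lowest RP22 value, 667, was that of replicate 1. The light subunits summed to 149.6 ± 6.41 RPKM at day 1, 173 ± 34.4 with RP22 and 287 ± 12.02 with AA147, or 19.6%, 22.2% and 26.4% of all transporters. Heavy subunits, nearly all SLC3A2, summed to 147 ± 19.1, 138 ± 23.9 and 225 ± 18.7 RPKM.

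Sodium-coupled neutral carriers formed the largest role at day 1 and with RP22, at 226 ± 25.7 and 256 ± 21.5 RPKM, and stood at 246 ± 1.1 with AA147, so that their share went from 29.7% and 33.1% to 22.6%. Glutamate carriers went from 7.0 ± 1.4 RPKM at day 1 to 32.3 ± 6.83 with RP22 and 69.2 ± 7.33 with AA147. Cationic carriers summed to 63.98 ± 5.12, 42.6 ± 8.31 and 65.5 ± 10.4 RPKM, a sum that was of like size at day 1 and with AA147 although SLC7A3 led in the first and SLC7A1 in the second. Neutral exchangers, nearly all SLC1A5, summed to 127 ± 14.5, 85.9 ± 4.28 and 156 ± 6.61 RPKM. Proton-coupled carriers (16.6, 22.1 and 19.1 RPKM) and SLC43 facilitators (25.3, 25.7 and 18.8 RPKM) were the smallest contributors beside glutamate carriers at day 1.

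By mean RPKM, SLC3A2 (147), SLC1A5 (126), SLC7A5 (83.6), SLC38A2 (82.2) and SLC38A1 (78.6) led at day 1. The ranges of SLC3A2 and SLC1A5 overlapped, as did those of SLC7A5, SLC38A2 and SLC38A1, so these neighbours were not separated. With RP22 the same 5 genes led, with SLC7A5 second at 110.5 RPKM and each overlapping the next. With AA147, SLC7A5 (247 RPKM, 231 to 259) and SLC3A2 (225, 204 to 237) overlapped, and SLC1A5 (141), SLC38A1 (98.2) and SLC38A2 (65.4) followed, each of the first 2 above the next without overlap. The ratio of SLC7A5 to its partner SLC3A2 per length was 0.565 ± 0.027 (SD, n = 3) at day 1, 0.790 ± 0.094 with RP22 and 1.10 ± 0.043 with AA147. SLC7A11 fell against SLC7A5, which shares the same heavy subunit, from 0.141 ± 0.0036 at day 1 to 0.0351 ± 0.0030 with RP22 and 0.0157 ± 0.00081 with AA147.

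**Figure D4:**
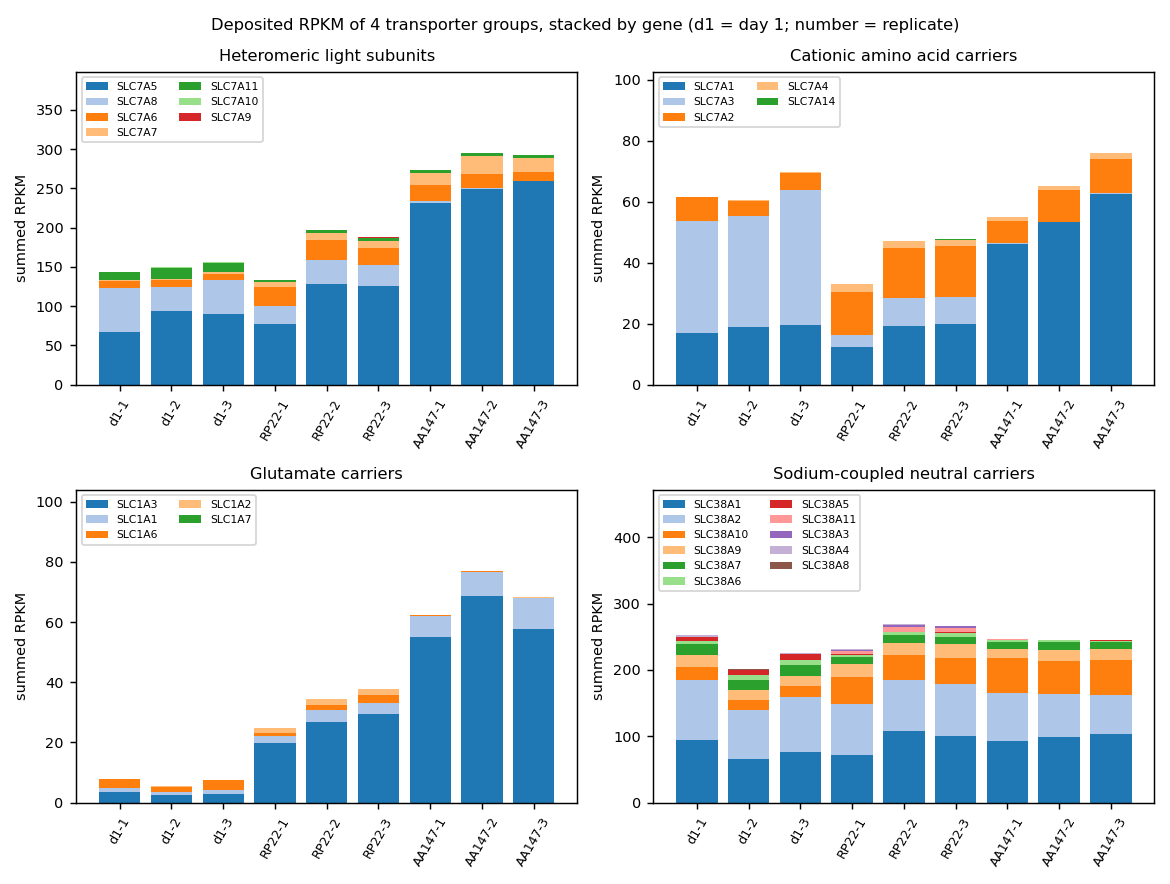
Deposited RPKM of 4 roles stacked by gene in each library, with summed RPKM on the vertical axes and day 1 (d1), RP22 and AA147 libraries from left to right. SLC7A5 fills most of the light subunit bars with AA147, SLC7A1 replaces SLC7A3 among the cationic carriers, and glutamate carrier bars go from 5.39 to 7.95 RPKM at day 1 to 62.5 to 77.01 with AA147.

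Genes around the transporters were read from 4 lists, under TMM alone. With library totals alone the median of all genes between the compounds was -0.49, and the lists were not refitted that way. Small rises in them, such as that of ATF6, therefore depend on the scaling. Of 11 regulators of transporter genes, 9 were higher with AA147 than with RP22, none was lower and 2 did not pass, beside 29.8% of all genes higher and 32.2% lower, with a median log2 fold change of 0.61 beside -0.03 over all genes. ATF4, which binds the C/EBP-ATF element, had 207, 242 and 228 CPM with RP22 and 298, 399 and 399 CPM with AA147, a log2 fold change of 0.61 ± 0.12 (SE; adjusted p = 0.0027). At day 1 it had 287, 366 and 333 CPM, and AA147 did not differ from day 1 past the test, at 0.15 ± 0.13 (SE; adjusted p = 0.31). DDIT3 (CHOP), a target and partner of ATF4, gave -0.12 ± 0.15 (SE; adjusted p = 0.49) between the compounds. NFE2L2, the regulator of antioxidant genes, was higher with AA147 at 0.88 ± 0.11 (SE; adjusted p = 0.00034) on the log2 scale. So were XBP1, another factor of the unfolded protein response, at 0.87 ± 0.08 (SE; adjusted p = 6.6e-05) and EIF2AK4, the kinase that senses uncharged tRNA, at 0.98 ± 0.11 (SE; adjusted p = 0.00016). MYC, a driver of growth, gave 1.13 ± 0.18 (SE; adjusted p = 0.0011), and ATF6 itself 0.36 ± 0.07 (SE; adjusted p = 0.0035). With RP22 over day 1, 2 of the 11 were higher and 4 lower (all genes 36.6% and 35.2%), and with AA147 over day 1, 5 were higher and 2 lower (all genes 38.7% and 40.4%).

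Of 23 genes of amino acid sensing at the lysosome, 12 were higher with AA147 than with RP22 and 2 lower (median 0.31), beside 29.8% and 32.2% of all genes. The 12 include SESN2, a leucine sensor and target of ATF4, at 1.06 ± 0.11 (SE; adjusted p = 0.0001) on the log2 scale, RRAGC, a GTPase that recruits mTORC1, at 0.67 ± 0.08 (SE; adjusted p = 0.00032), and the arginine sensor CASTOR1, listed under its older symbol GATSL3, at 1.10 ± 0.14 (SE; adjusted p = 0.00029). The 2 lower were its relative CASTOR2, listed as GATSL1, at -1.27 ± 0.34 (SE; adjusted p = 0.013), and FNIP2 at -0.42 ± 0.09 (SE; adjusted p = 0.0046). CASTOR2 was scarce, at 1.42 to 2.15 CPM with RP22 and 0.756 to 0.828 with AA147. Over day 1 the counts were 3 higher and 9 lower with RP22 (all genes 36.6% and 35.2%) and 12 higher and 8 lower with AA147 (all genes 38.7% and 40.4%). Of 10 genes of glutathione and cystine use, which include SLC7A11, 5 were higher with AA147 than with RP22 and 1 lower (median 0.37), beside the same 29.8% and 32.2%. GCLM, a subunit of the first enzyme of glutathione synthesis, gave 0.97 ± 0.14 (SE; adjusted p = 0.00057). GCLC, the catalytic subunit, gave -0.04 ± 0.11 (SE; adjusted p = 0.76). In that list 9 of 10 were lower with RP22 than at day 1, beside 35.2% of all genes, and 6 of 10 with AA147, beside 40.4%, and none was higher in either. Of other amino acid carriers, 18 were tested between the compounds, with 6 higher and 7 lower, near the shares of all genes (29.8% and 32.2%), and a median of -0.35 beside -0.03 over all genes. Among them SLC16A10, a carrier of aromatic amino acids, gave -2.18 ± 0.37 (SE; adjusted p = 0.0014) and SLC6A9, a glycine carrier, 1.09 ± 0.13 (SE; adjusted p = 0.00026). Over day 1 these carriers were 5 higher and 9 lower of 19 with RP22 (all genes 36.6% and 35.2%). With AA147 they were 5 higher and 9 lower of 16 (all genes 38.7% and 40.4%).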

How the data were processed

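RNA-seq libraries were grouped by their titles, 3 per group. The authors deposited expected counts per gene (whole or fractional read counts, not scaled) and RPKM per library. The submitters' processing notes name GRCh37.p13 as the build, while no aligner, counter or strand setting is given in the sources used here. A floor of 0.05, read here as 0, filled 41.4% of the count cells. Values with fractions, 0.914% of all count cells, were rounded, and 42 symbols on 2 rows were summed.

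Each comparison was fitted on its own 6 libraries with edgeR 4.0.16 in R 4.3.3 (filterByExpr, TMM, robust quasi-likelihood F test, Benjamini-Hochberg over all genes, threshold 0.05). CPM per library use 1 TMM scaling over 9 libraries. With 3 against 3 libraries an exact permutation test cannot go below 0.1. Counting intervals are 95% and, like floors of 3 reads, cover counting error only. Alternatives were DESeq2 1.42.0, limma-voom and limma 3.58.1 on log2(RPKM + 0.5), other scalings, no filter, 1 fit of 9 libraries, a replicate block, and libraries left out. The fit was tested on simulated data.

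The transporters, lists and naming rule were chosen with earlier results of these data known. Values in every library are given for transporters of at least 5 CPM among the 6 largest rises or falls of a comparison without overlap, and for 13 listed genes. RefSeq promoter windows were used as a table.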

Additional observations from a re-analysis of the deposited data

How the results depend on the processing

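With library totals alone, and with limma on log2(RPKM + 0.5), 17 transporters were lower with AA147 than with RP22 in place of 11. Signs turned in AA147 against RP22 with library totals for SLC36A4 (-0.36), SLC38A2 (-0.24), SLC38A9 (-0.38), SLC43A2 (-0.04), SLC7A11 (-0.018) and SLC7A6 (-0.41), and on RPKM for SLC36A4 (-0.34), SLC38A2 (-0.24), SLC38A9 (-0.37), SLC43A2 (-0.064) and SLC7A6 (-0.56). In AA147 against day 1 they turned for SLC38A2 (-0.33 by both) and SLC38A9 (-0.068 and -0.061). These scalings moved the median of all genes. Without replicate 1 of both groups, SLC7A4 was at 0.12 and SLC7A6 at -0.07 in AA147 against RP22, and SLC38A4 at 0.21 in RP22 against day 1. With 1 library left out, the log2 fold change ran from -0.36 to 0.026 for SLC7A4 and from -0.093 to 0.15 for SLC7A6 in AA147 against RP22, and from -0.60 to 0.13 for SLC38A4 in RP22 against day 1. The pseudocount of 0.5 on RPKM gave smaller folds for scarce genes, such as -2.13 for SLC1A2 in AA147 against RP22. No other count of transporters moved by over 1.5 times. Samples with the same replicate number had correlations of -0.05 to 0.21 in their deviations, so the numbers were not taken to pair samples. With a replicate block 14, 15 and 17 transporters were higher and 11, 10 and 10 lower in AA147 against RP22, RP22 against day 1 and AA147 against day 1. The block brought SLC7A11 past the threshold in the first (0.48, adjusted p = 0.033) and SLC36A1, SLC3A2 and SLC7A5 in the second, where SLC36A4 was lost. Depth limits the 7 genes under 30 reads and the AA147 values of SLC1A2, SLC38A4, SLC38A5, SLC38A11, SLC7A14, SLC1A6 and SLC7A3.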
